A study of Mus musculus with 6 samples.

Results

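Histone cluster genes encode the core histones H2A, H2B, H3 and H4 and the linker histone H1, and they lie together in the genome as multicopy clusters. The genes described here were all those whose symbol begins with Hist1h, Hist2h, Hist3h or Hist4, which gave 67 of the 32285 genes counted. They comprised 6 H1, 18 H2A, 18 H2B, 12 H3 and 13 H4 genes. In the mouse build GRCm38, 54 lay on chromosome 13, 10 on chromosome 3, 2 on chromosome 11 and 1 on chromosome 6. Single-cell RNA sequencing had been done on EpCAM-sorted epithelium from ileal crypts of mice on the C57BL/6J background, aged 8 to 12 weeks and matched for sex. Of the 6 libraries, 3 were from Fpr2f/f mice (labelled WT), whose formyl peptide receptor gene Fpr2 is flanked by loxP sites. The other 3 were from Fpr2VKO mice, which carry the same floxed alleles together with a Cre transgene under the Villin promoter, which is active in intestinal epithelium. A total of 17104 cells held 188913 UMIs of the 67 genes, a UMI (unique molecular identifier) marking 1 captured transcript molecule.

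Most genes of these clusters are replication-dependent: they are switched on as DNA is copied, and their transcripts supply the histones that package new DNA. Their messenger RNAs are unusual in ending not in a poly(A) tail but just after a short stem-loop, which the stem-loop binding protein holds. When replication stops these transcripts are quickly broken down. Some members also have a longer, polyadenylated form, which is known from cells that have left the cycle. Droplet libraries generally capture transcripts by their poly(A) tail.

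The ends of the transcripts are shown first because the results differed along them. In the GENCODE M21 annotation (GRCm38), 46 of the 67 members (68.7%) held the histone stem-loop after the stop codon, against 0.022% of 58725 coding transcripts of other genes with a match at any position. Of the other 21 members, 13 were annotated only as far as the stop codon, so their ends could not be read. The 8 forms found are given below, read as DNA from the coding strand, each under the name of 1 member that carries it, with the loop in capitals.

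Hist1h1e: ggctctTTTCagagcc

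Hist1h4d: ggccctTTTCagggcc

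Hist1h3e: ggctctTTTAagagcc

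Hist1h4i: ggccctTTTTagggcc

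Hist1h4j: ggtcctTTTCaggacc

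Hist1h3g: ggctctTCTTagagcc

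Hist1h4a: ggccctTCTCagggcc

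Hist2h2ac: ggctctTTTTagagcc

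The form shown for Hist1h1e (chr13:23621782-23621797, minus strand) was shared by 26 members of the H1, H2A, H2B and H3 types. The form of Hist1h4d was carried by 7 H4 genes, that of Hist1h3e by 6 members, those of Hist1h4i and Hist1h4j by 2 each and the last 3 by 1 member each. A poly(A) signal, AATAAA or ATTAAA, lay within the last 50 annotated bases of 17 members (25.4%), 14 of which also held the stem-loop further upstream. Over all 58797 coding transcripts the share with such a signal was 50.2%. The stretches around it are given for 4 members whose levels are followed below, with the signal in capitals.

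Hist1h1c: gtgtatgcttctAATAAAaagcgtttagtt

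Hist1h2ae: cccagcttctccAATAAAtgggtcaatttt

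Hist2h2be: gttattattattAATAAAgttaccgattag

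Hist1h4i: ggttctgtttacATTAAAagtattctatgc

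These lie at chr13:23740330-23740359 (Hist1h1c, plus strand), chr13:23570527-23570556 (Hist1h2ae, minus), chr3:96223705-96223734 (Hist2h2be, plus) and chr13:22040639-22040668 (Hist1h4i, minus). Hist1h2bc, the member with most UMIs, is annotated with 2 exons (chr13:23684199-23692908, plus strand), and its annotated transcript held neither the stem-loop nor either signal near its end. In all, 62 members had a single exon.

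Members also shared promoter words. RefSeq gave a promoter (GRCm38.p6, 250 bases before to 50 after the gene start) for 62 members. TATAA, the core of the TATA box, was present on either strand in 79.0% of them against 25.5% of 27025 promoters. CCAAT, the word bound by the factor NF-Y, was present in 85.5% against 37.9%, and both were present in 64.5% against 10.2%. The promoters of 2 linker histone genes are shown, since their levels followed the cell cycle differently (below). Capitals mark TATAA and CCAAT on either strand, where neighbouring matches may run together.

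Hist1h1b: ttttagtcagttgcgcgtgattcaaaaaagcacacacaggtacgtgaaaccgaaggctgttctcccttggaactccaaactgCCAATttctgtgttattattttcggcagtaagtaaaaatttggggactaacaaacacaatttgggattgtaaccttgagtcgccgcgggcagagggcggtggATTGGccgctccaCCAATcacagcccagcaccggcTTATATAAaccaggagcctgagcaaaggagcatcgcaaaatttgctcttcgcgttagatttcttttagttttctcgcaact

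Hist1h1c: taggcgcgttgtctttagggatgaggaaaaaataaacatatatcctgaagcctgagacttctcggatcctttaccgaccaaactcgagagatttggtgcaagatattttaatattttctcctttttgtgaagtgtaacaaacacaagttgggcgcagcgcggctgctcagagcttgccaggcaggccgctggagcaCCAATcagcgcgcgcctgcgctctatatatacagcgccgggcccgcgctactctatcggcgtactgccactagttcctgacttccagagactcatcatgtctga

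Hist1h1b (chr13:21780576-21780875, minus strand) held CCAAT 53 bases and TATAA 28 bases before its start. Hist1h1c (chr13:23738557-23738856, plus strand) held CCAAT 54 bases before its start and no exact match to TATAA in this window. Its printed sequence does hold a TATA repeat between that CCAAT and the start. Only the exact word was searched for, so a TATA box of another spelling would be missed, and its absence from Hist1h1c is not shown.

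Many members are near copies of each other. Stretches of 60 bases were shared with another member by 59 of the 67, and made up over 50% of the annotated sequence of 29. How reads that fit several members were assigned is not given in the sources used here, so the split among close copies is uncertain. If such reads were left out, sums over members lack them as well. Where close copies differ in their annotated end, sums by that end also depend on the split. Of the 60-base words of Hist1h2br, 99.8% were also in another member. In addition, 7 members overlapped another gene on the same strand (Hist1h2be spans the end of Hist1h1e) and 21 overlapped one on the opposite strand.

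The libraries held 1868 to 4722 cells and 90142126 to 189516114 UMIs in total, and 3 UMIs, the limit that a count of 0 allows, came to 0.0573 to 0.113 CPM (UMIs per 1000000 UMIs of the cells summed). A level covers the molecules captured and was not divided by transcript length, and such limits cover counting error only. The epithelial markers Epcam, Cdh1, Vil1, Krt8, Krt18 and Krt19, which fit the sort, were present in every library and summed to 3998 to 4752 CPM. In addition, 9 immune markers, led by Cd74, Ccl5 and Gzma, summed to 566.6 to 1410 CPM. Fpr2 itself gave 0 UMIs in the cells of each library, so its level could not check the labels. The libraries shared 123 cell barcodes, unevenly by pair. Fpr2f/f replicate 3 and Fpr2VKO replicate 3 shared 9 with each other and 0 to 4 with any other library. The remaining pairs shared 8 to 23, and what lies behind these numbers was not tested. Fpr2f/f replicate 2 stood apart: 55 of the 67 members had their highest level there. Most counts of called members, group comparisons and bin means below are also given without it.

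Of the 67 members, 65 gave at least 1 UMI, and 58 gave over 100. Hist2h2bb and Hist3h2a were at 0 in all 6 libraries. Both overlap another gene on the same strand (Gm42743 and Trim17), and how reads in such overlaps were counted is not given in the sources used here. Mean levels were 10 CPM or more for 15 members, 1 to under 10 CPM for 41 and under 1 CPM for 11. UMIs were unevenly spread: the leading member took 28.1% of the summed mean level and the 10 highest took 67.2%. By type, H2B made up 35.8%, H1 23%, H4 19.3%, H2A 12.7% and H3 9.22%.

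Hist1h2bc (ENSMUSG00000018102), an H2B gene, was highest in all 6 libraries, at 224.8, 218.2 and 243.1 CPM in Fpr2f/f and 219.8, 196.4 and 245.5 CPM in Fpr2VKO. The lowest and highest library were close, and the groups overlapped. Hist1h1e (ENSMUSG00000051627, chr13:23620629-23622558), a linker histone gene, reached 54.9, 174.1 and 79.8 CPM in Fpr2f/f and 78.8, 47.2 and 53.3 CPM in Fpr2VKO. Its value in Fpr2f/f replicate 2 was 2.18 times the next highest. Hist1h4d (ENSMUSG00000061482, chr13:23581598-23582735), the leading H4 gene, stood at 37.0, 108.6 and 53.0 CPM and at 37.9, 33.8 and 31.6 CPM, again with 1 high library. Hist1h1c, another linker histone gene, lay closer together, at 48.9, 64.7 and 51.6 CPM in Fpr2f/f and 47.6, 45.2 and 54.4 CPM in Fpr2VKO.

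The remaining members among the 10 highest were Hist1h1b (H1, mean 30.9 CPM), Hist1h2ae (the leading H2A gene, 22.1), Hist1h4c (H4, 19.6), Hist1h3e (the leading H3 gene, 19.6), Hist1h2ac (H2A, 19.0) and Hist4h4 (H4, 17.1). Neighbours in this order from Hist1h4c to Hist4h4 were closer than the spread between libraries. The germline genes were at the bottom of the list: Hist1h1t, the testis H1, gave 14 UMIs, and Hist1h2aa and Hist1h2ba, known from the testis, gave 4 and 2 UMIs in all.

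**Figure D1:**
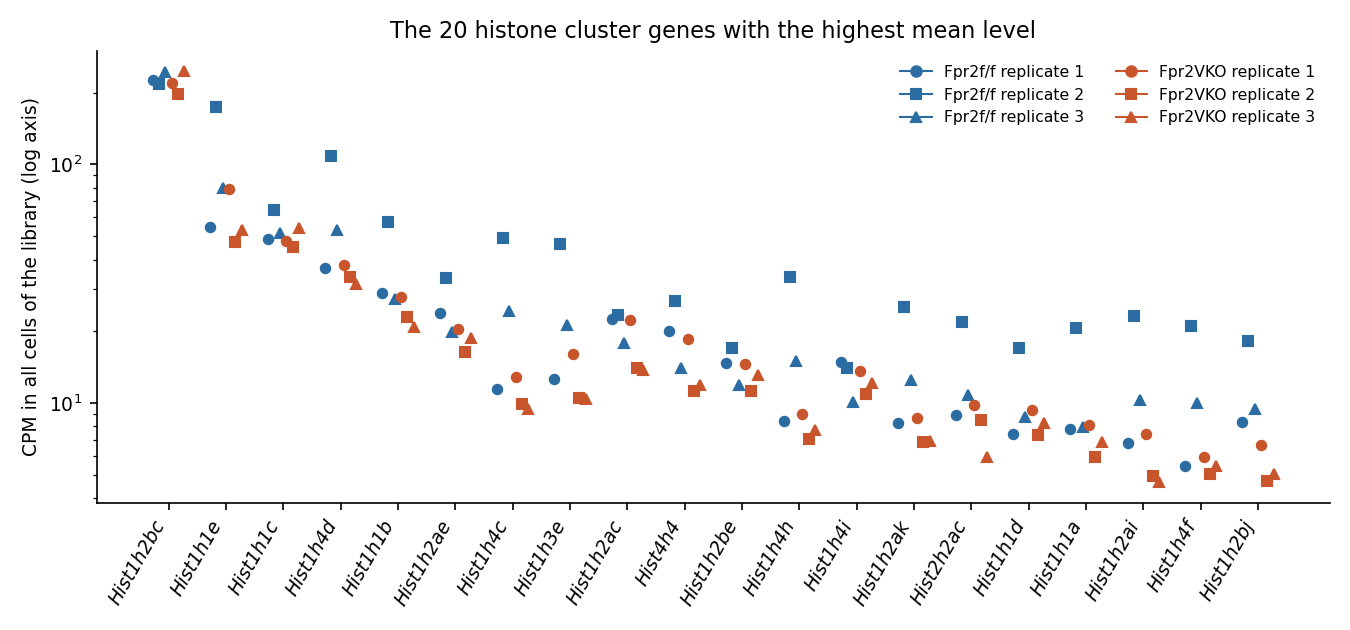
Level of the 20 highest members in all cells of each library, in CPM on a log axis, with Fpr2f/f libraries in blue and Fpr2VKO libraries in orange. Fpr2f/f replicate 2 (blue squares) lies above the other libraries for most members, but not for Hist1h2bc, which spans 196.4 to 245.5 CPM.

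Cells of at least 5000 UMIs were given a proliferative state from 23 S-phase genes and 20 G2/M genes, none of which is a member. S-high cells (1705) ranked in the top 25% of their library for the share of S-phase UMIs, G2/M-high cells (1767) likewise for the G2/M genes, and low-cycling cells (3271) ranked under the median for both. These are ranges along a scale, not cell types, and 100 to 252 cells per library lay within 0.05 of the rank that bounds the top 25%. Across the marker-rich cells described below, the S-phase genes went from 67.6 to 124.7 CPM (Paneth markers) to 1850 to 2426 CPM (stem markers). The states can thus differ in their mix of cell types, and state and type cannot be told apart in these comparisons. The question was which members follow the cycle, as replication-dependent genes are known to do.

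Nearly all the members that could be tested were higher in S-high cells, and the exceptions included the member with most UMIs. Hist1h1b was at 36.3, 105.9 and 42.3 CPM in the S-high cells of Fpr2f/f and at 38.7, 26.4 and 27.0 CPM in those of Fpr2VKO. In low-cycling cells it was at 1.21, 4.26 and 1.11 CPM and at 2.76, 1.00 and 1.78 CPM. All S-high values lay far above all low-cycling values, and the log2 difference was 4.03 ± 0.15 (SE; edgeR, 6 libraries as blocks, adjusted p = 7e-11). Hist1h2ae changed as evenly, from 2.56 to 5.41 CPM in low-cycling cells to 27.5 to 70.8 CPM in S-high cells, a log2 difference of 3.03 ± 0.10 (adjusted p = 8.5e-13). Hist1h1e was higher by 2.1 ± 0.27 (adjusted p = 0.00067), with S-high values from 24.5 CPM in Fpr2f/f replicate 1 to 260.6 CPM in Fpr2f/f replicate 2.

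Of the 67 members, 40 passed the filter on low counts in this comparison; 36 of these were called higher and 2 lower, where 36.9% of all 12371 genes tested were called higher and 36.6% lower. Since the filter favours members that are high in 1 of the classes, the share among those tested is not a share of all 67. Over all members, tested or not, 48 were higher in S-high cells in 6 of 6 libraries, as were 16% of the 27446 genes with a UMI in either class. Without Fpr2f/f replicate 2, 36 of 40 were called higher and 3 lower (35.2% and 35.4% of all genes), Hist1h1c being the third. The differences were smaller when the S-phase cells were chosen in either of 2 other ways. With the phases called by cyclone, a classifier trained on pairs of genes, S cells against G1 cells had 40 of 55 tested members higher and 2 lower (27.5% and 27% of all genes), and the median log2 difference of those tested was 0.74 against 2.40 in the ranked classes. With the top 10% of each library in place of the top 25%, 24 of 28 were higher and 3 lower (36.5% and 36.6% of all genes), with a median of 1.44. These medians are over different sets of tested members. Other settings gave larger medians, of 3.07 over 26 members with cells thinned to 5000 UMIs and 3.99 over 25 without cells of 2 or more immune-marker UMIs. The immune markers summed to 506 to 1218 CPM in S-high, 340.9 to 775.3 CPM in G2/M-high and 278.8 to 961.7 CPM in low-cycling cells, and their part in the result was not tested beyond leaving out the cells with 2 or more of their UMIs. With that cut the classes held 420 S-high and 878 low-cycling cells, against 1705 and 3271 without it. It kept 1160 of 5383 cells of at least 10000 UMIs and 6005 of 8682 under 5000 UMIs, so the depth of the cells changed as well. Smaller sets of cells left fewer members to test, with 23 higher of 25 after cells with 2 or more immune-marker UMIs were left out (21.8% of all genes) and 11 of 15 at a mitochondrial limit of 10% (31.8%). With levels scaled by total UMIs alone, the median of all genes moved by 0.45 on the log2 scale, 57.8% of genes were called higher and 18.7% lower, and 37 members were called higher and 2 lower.

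Other large log2 differences between S-high and low-cycling cells were those of Hist1h2af (4.11 ± 0.24), Hist1h4f (3.68 ± 0.21), Hist1h2ai (3.24 ± 0.31), Hist1h2ak (3.0 ± 0.32) and Hist2h2ac (2.78 ± 0.19). Hist1h1a, a further linker histone gene, differed by 2.77 ± 0.21, Hist1h3a by 2.55 ± 0.26 and Hist1h4d by 2.45 ± 0.29. Hist1h4c (2.31 ± 0.14) and Hist1h3e (2.33 ± 0.28) followed. None of these 10 is an H2B gene, and in low-cycling cells they were at 0.111 (Hist1h2af) to 13.1 CPM (Hist1h4d).

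The members that did not follow were few. Hist1h2bc was at 177.2, 195.6 and 199.7 CPM in the S-high cells of Fpr2f/f against 242.5, 198.5 and 251.3 CPM in the low-cycling cells, and at 170.8, 149.5 and 195.2 CPM against 252.0, 177.2 and 240.1 CPM in Fpr2VKO. It was lower in 6 of 6 libraries, by 0.76 ± 0.05 on the log2 scale (adjusted p = 4.8e-09) or by 0.32 when levels were scaled by total UMIs alone. After cells with 2 or more immune-marker UMIs were left out, which kept 420 S-high and 878 low-cycling cells, its difference was 0.18 (adjusted p = 0.314). Hist2h3c1, an H3 gene with a poly(A) signal, was at 1.06 to 2.99 CPM in S-high and 2.15 to 4.10 CPM in low-cycling cells, a difference of -1.28 ± 0.26 (adjusted p = 0.00037, lower in 6 of 6 libraries), and with cyclone phases it did not pass (-0.55, adjusted p = 0.143). It was singled out after its value was seen, as were Hist2h2be, Hist1h4i, Hist1h2br and the 5 H4 genes with a signal named below.

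Hist1h1c did not pass the test. It was at 38.6, 75.4 and 45.0 CPM in S-high cells of Fpr2f/f and 32.6, 28.8 and 37.1 CPM in those of Fpr2VKO, against 38.0 to 47.2 CPM in low-cycling cells of all 6 libraries. The difference was -0.47 ± 0.24 (adjusted p = 0.138). It was called lower without Fpr2f/f replicate 2 (-0.69, adjusted p = 0.00239), with the top 10% (-0.87, adjusted p = 0.0373) and with cyclone phases (-0.38, adjusted p = 0.00139). With cells of 2 or more immune-marker UMIs left out it was 0.52 (adjusted p = 0.136), and with cells thinned to 5000 UMIs 0.05 (adjusted p = 0.915). Hist1h2ac, an H2A gene with 2058 annotated bases after its stop codon, differed by 0.29 ± 0.15 (adjusted p = 0.116). Because Hist1h2bc makes up most of the H2B level, summed H2B had a mean log2 ratio of plain CPM of 0.03 ± 0.31 (SD, 6 libraries), whereas the other 17 H2B genes gave 1.95 ± 0.51. The corresponding ratios were 2.59 ± 0.50 for H2A, 2.46 ± 0.68 for H4, 2.16 ± 0.81 for H3 and 1.5 ± 0.70 for H1. Without Hist1h1c the H1 ratio was 2.88 ± 0.48.

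Between G2/M-high and low-cycling cells most tested members were again higher. Here 49 members passed the filter, 45 were called higher and 1, Hist1h2bc, lower (-0.81 ± 0.08, adjusted p = 1.4e-06), although in plain CPM it was higher in 1 of 6 libraries, with 36.5% and 36.6% of 12440 genes called. Over all members, tested or not, 52 were higher in 6 of 6 libraries, as were 15.6% of the 27481 genes with a UMI in either class. Hist1h1b differed by 4.14 ± 0.16, Hist1h2af by 4.37 ± 0.22, Hist1h2ae by 3.30 ± 0.09, Hist1h3c by 3.23 ± 0.26 and Hist1h2bj, an H2B gene, by 2.82 ± 0.18. Hist1h2ac passed here (0.95 ± 0.12, adjusted p = 7.3e-06). Hist1h1c (-0.24 ± 0.18) and Hist2h3c1 (-0.45 ± 0.28) did not, and with scaling by total UMIs alone their differences were 0.23 and 0.01. That scaling moved the median of all genes by 0.47 and gave 60.4% of genes higher and 17.8% lower, with 46 members higher and 1 lower. Without Fpr2f/f replicate 2, 42 of 45 members were called higher and 3 lower (34.7% and 35.1% of all genes), which then included Hist1h1c (-0.39, adjusted p = 0.0203) and Hist2h3c1 (-0.77, adjusted p = 0.0201). Hist1h1c was also called lower at a mitochondrial limit of 10% (-0.36, adjusted p = 0.0365). Hist2h3c1 was called lower with the top 10% (-0.68, adjusted p = 0.0253) and higher with cyclone phases (0.77, adjusted p = 0.0225). With cells of 2 or more immune-marker UMIs left out, which kept 416 G2/M-high cells, Hist1h2bc differed by 0.60 (adjusted p = 0.00924) and Hist1h1c by 0.82 (adjusted p = 0.0209), so for these 3 members the direction depended on which cells were kept.

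The levels did not simply climb with the S-phase share. Cells of at least 5000 UMIs were split by that share into 5 equal bins within each library. Members without a poly(A) signal, Hist1h2bc left out, summed to a mean of 58.6 CPM in the lowest bin, 135.8 in the second, 316.8 in the third, 678.5 in the fourth and 458.7 in the highest. In 6 of 6 libraries the fourth bin was above the highest. The means were 48.8, 104.7, 234.1, 500.2 and 303.9 CPM in the same order when Fpr2f/f replicate 2 was left out. The 17 members with a signal went from 63.2 CPM in the lowest to 221.7 CPM in the fourth bin. Hist1h2bc took another course, at 275.3 to 400.5 CPM in the second bin, its highest in 5 of 6 libraries, and 132.6 to 180.2 CPM in the highest bin. The bins also differed in other ways. The G2/M genes summed to 2510 to 3484 CPM in the fourth bin and 1441 to 1865 CPM in the highest. Median UMIs per cell were 7476 to 21919 in the fourth and 8622 to 26842 in the highest bin. Their part in the order of the bins was not tested.

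**Figure D2:**
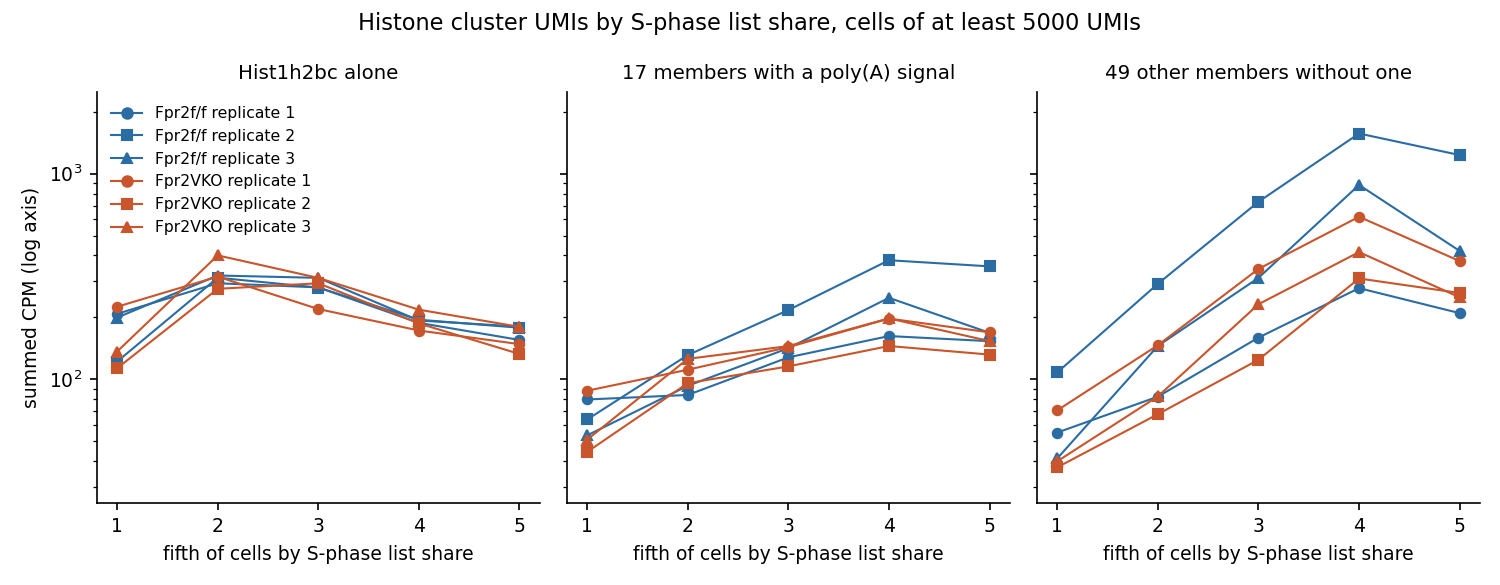
Summed CPM (log axis) in 5 equal bins of the cells of at least 5000 UMIs, ordered by the share of S-phase list UMIs, 1 line per library. In the right panel all 6 lines peak in the fourth bin, while Hist1h2bc peaks in the second in 5 of 6.

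The depth of the cell, its total of UMIs, was the other axis along which members separated. Shallow cells, of 1000 to under 5000 UMIs (8682 cells), were compared with deep cells of at least 10000 UMIs (5383 cells). Hist1h1e was at 262.0, 442.8 and 243.8 CPM in shallow cells of Fpr2f/f and 308.5, 341.5 and 272.4 CPM in those of Fpr2VKO, against 15.7, 42.8 and 23.4 CPM and 28.3, 14.6 and 19.2 CPM in deep cells. Every shallow value was above every deep one, and the log2 difference was 3.57 ± 0.18 (edgeR, adjusted p = 2.5e-06). Hist1h3e went from 2.95 to 10.3 CPM in deep cells to 58.2 to 122.1 CPM in shallow cells, a difference of 3.80 ± 0.14 (adjusted p = 1.2e-10). Hist1h4c differed by 3.76 ± 0.23, Hist1h3h by 3.88 ± 0.17, Hist1h4m by 3.77 ± 0.20, Hist1h2ai by 3.67 ± 0.21 and Hist1h2bj by 3.48 ± 0.17.

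Other members differed less. Hist1h1c was at 79.2 to 106.8 CPM in shallow and 38.5 to 46.8 CPM in deep cells, a difference of 1.00 ± 0.07 (adjusted p = 4.3e-10). Hist1h2bc was at 222.2 to 304.6 CPM in shallow and 193.8 to 239.8 CPM in deep cells, with a difference of 0.03 ± 0.06 (adjusted p = 0.689), or of -0.25 (adjusted p = 0.00059) when no filter on low counts was applied. In plain CPM Hist1h2bc was higher in shallow cells in 6 of 6 libraries, by 1.07 to 1.28 times, so its direction depended on the scaling. Hist1h2ae, which differed widely between S-high and low-cycling cells, was less far apart here, at 22.9 to 42.4 CPM against 14.4 to 27.2 CPM (0.48 ± 0.10, adjusted p = 0.00034). Hist1h4i differed by 0.43 ± 0.12 (adjusted p = 0.00328) and was higher in 5 of 6 libraries. Hist2h2be, an H2B gene, was lower in shallow cells in 6 of 6 libraries, at 1.96 to 6.28 CPM against 3.98 to 8.08 CPM (-0.75 ± 0.17, adjusted p = 0.00057). Hist1h2br was also called lower (-2.01, adjusted p = 0.0025), from few UMIs and with its near copy Hist1h2bq at 9 UMIs in all.

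In this comparison 58 members passed the filter, 55 were called higher and 2 lower, where 35.3% and 34.5% of 14514 genes were called. Over all members 54 were higher in 6 of 6 libraries, as were 18% of the 28466 genes with a UMI in either bin. Without Fpr2f/f replicate 2, 54 of 58 were called higher and 2 lower (31.6% and 34.8% of all genes). Scaling by total UMIs alone moved the median of all genes by 0.22 and gave 44.5% higher and 25% lower, with 56 members higher. All 67 members together were 3.43 to 5.52 times higher in shallow than in deep cells of the same library, at 1708 to 2682 CPM against 394.8 to 594.6 CPM.

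Depth came with other differences between the cells. The nuclear RNA Malat1 was at 7978 to 11238 CPM in shallow and 2287 to 3659 CPM in deep cells, the immune markers summed to 742.5 to 2032 CPM against 268.9 to 901.5 CPM, and the median share of mitochondrial UMIs was 14.0 to 16.2% against 10.03 to 12.7%. The part of Malat1 in the result was not tested. With cells of 2 or more immune-marker UMIs left out, 52 of 53 tested members were called higher (30.8% of all genes) and 0 lower, and the mean log2 ratio of the summed members was 2.80 against 2.03. This cut kept 6005 of 8682 shallow but only 1160 of 5383 deep cells, so it also changed the make-up of the depth classes. At a mitochondrial limit of 10%, 42 of 44 were higher (22.3% of all genes) and the ratio was 2.52, and at a limit of 40%, 53 of 58 were higher (38.2%) and it was 1.29. The S-phase genes overlapped (747.4 to 999.3 CPM in shallow against 796.3 to 1393 CPM in deep cells), as did the G2/M genes (1050 to 1646 CPM against 894.8 to 1508 CPM). In cells that had no UMI of either list after thinning to 1000 UMIs, the mean log2 ratio of the summed members was 1.53, and in all cells thinned to 1000 UMIs it was 1.67, against 2.03 in the unthinned cells. Within 10 to 20% mitochondrial UMIs the summed level was 1776 to 2398 CPM in shallow and 486.6 to 813.4 CPM in deep cells.

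The summed level peaked at intermediate depth. Members without a poly(A) signal, Hist1h2bc left out, had mean levels of 1007 CPM at 1000 to under 2000 UMIs, 1478 at 2000 to under 5000, 1311 at 5000 to under 10000, 446.8 at 10000 to under 20000 and 117.2 at 20000 UMIs or more. The spread between libraries was widest at 5000 to under 10000 UMIs, from 513.6 CPM in Fpr2f/f replicate 1 to 2608 CPM in Fpr2f/f replicate 2. Without that library the means were 923.8, 1365, 1052, 341.4 and 109.8 CPM from the shallowest bin to the deepest. Hist1h2bc was at 275.5, 255.3, 233.1, 242.1 and 216.6 CPM from the shallowest bin to the deepest in all 6 libraries.

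**Figure D3:**
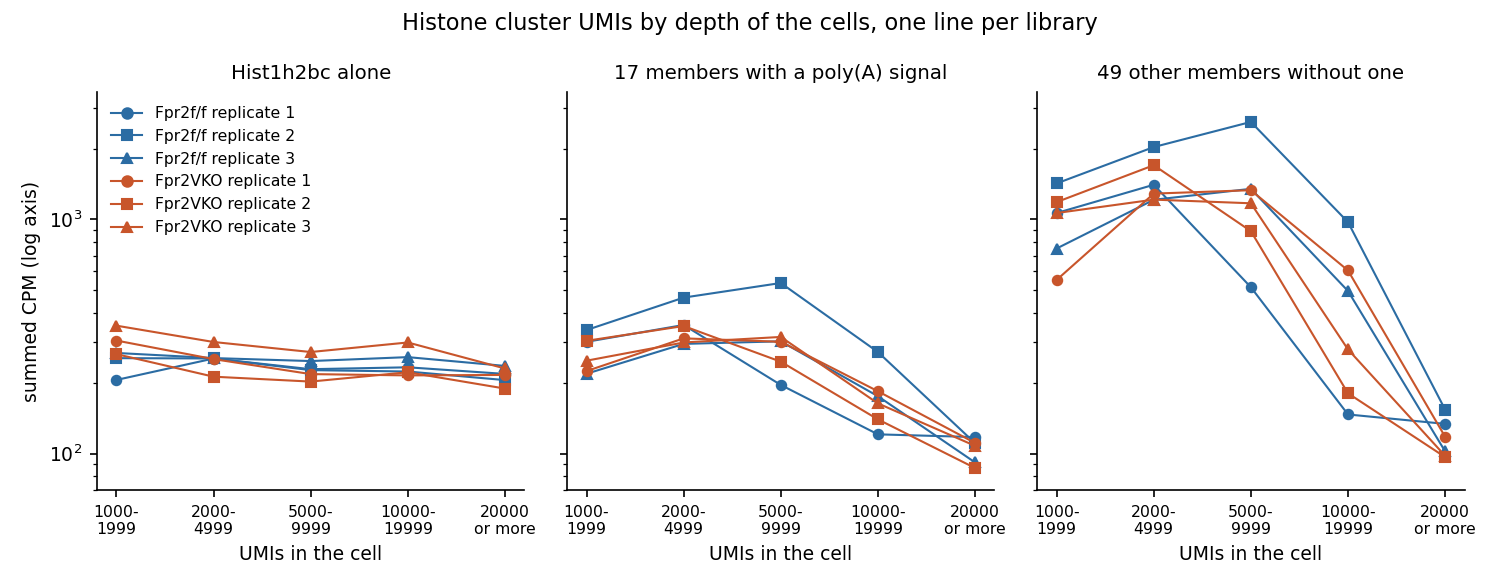
Summed CPM (log axis) against the UMI total of the cells, 1 line per library. Hist1h2bc is almost flat, the 17 members with an annotated poly(A) signal fall moderately, and the other 49 fall from a mean of 1311 CPM at 5000 to under 10000 UMIs to 117.2 CPM in the deepest cells.

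Members divided by whether a poly(A) signal lay in their last 50 annotated bases. Lack of a signal does not mean that the annotated transcript ends at the stem-loop. Without a signal, Hist1h1e is annotated 1153 bases and Hist1h4d 770 bases past it, whereas Hist1h4h, which has a signal, ends 46 bases past it. The log2 ratio of the shallow to the deep level, computed from UMIs summed over libraries, had a median of 1.53 among the 16 members with a poly(A) signal and UMIs in both bins (range -1.76 to 3.71), and 11 of the 16 were under 2. Among the 49 members without a signal the median was 3.26 (0.23 to 4.25), and 4 were under 2, namely Hist1h2bc, Hist1h2ac, Hist1h2ag and Hist1h3d. As sums, members with a signal were 2.58 to 3.66 times higher in shallow cells, and all 50 without one 3.61 to 6.1 times. With Hist1h2bc left out, the members without a signal were 7.53 to 15 times higher, so the size of the division in the sums rests on leaving out that member. The 13 members annotated only to the stop codon gave 7.41 to 17 times. The 5 members with a signal and a ratio of 2 or more were all H4 genes. Their edgeR differences were 3.45 ± 0.16 for Hist1h4a, 3.33 ± 0.16 for Hist1h4h, 3.28 ± 0.21 for Hist2h4, 2.52 ± 0.19 for Hist1h4j and 2.33 ± 0.09 for Hist4h4. This division was noticed in these data, was given no test, and the annotation used by the authors for counting is not stated.

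**Figure D4:**
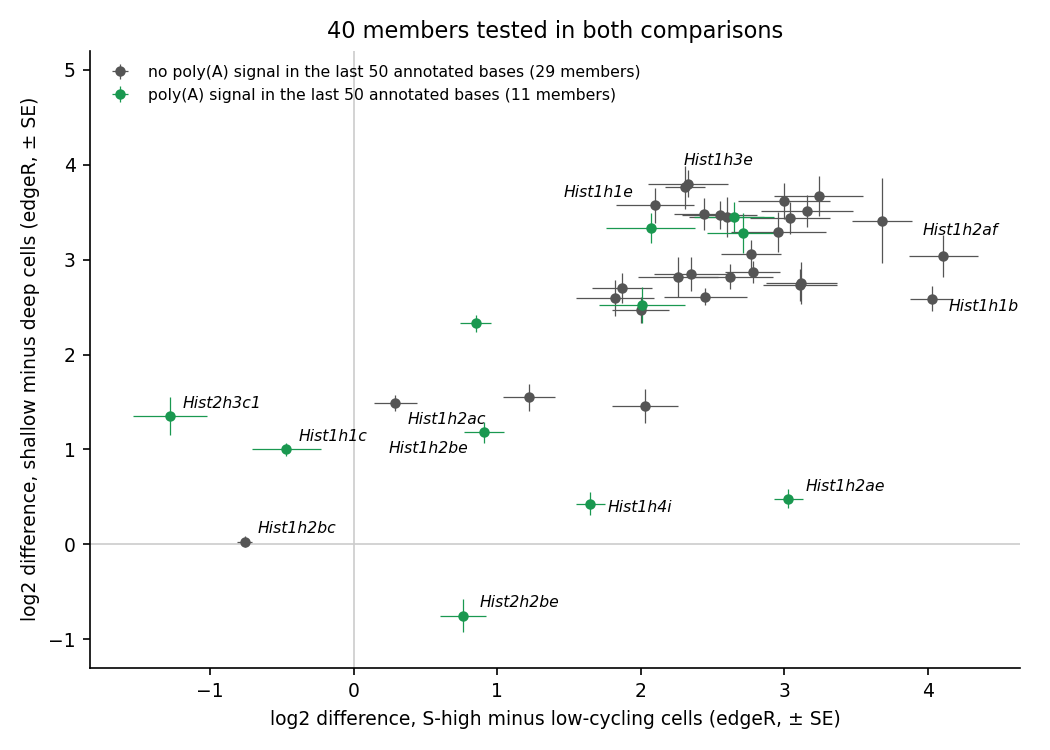
Log2 difference between S-high and low-cycling cells against that between shallow and deep cells, for the 40 members tested in both, with edgeR standard errors. Most members lie at the upper right, Hist1h2bc at -0.76 and 0.03, and Hist1h2ae and Hist1h4i are raised in S-high cells but little in shallow cells.

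State and depth were then crossed. In the 65 members other than Hist1h2bc and Hist1h1c, S-high cells of 5000 to under 10000 UMIs held 1176 to 4275 CPM, those of 10000 to under 20000 UMIs 291.9 to 2132 CPM, and those of 20000 UMIs or more 202.9 to 378 CPM. Low-cycling cells held 118.2 to 554.1, 87.5 to 212.5 and 53.7 to 111.4 CPM in the same bins. Within each bin and library S-high cells were above low-cycling cells, by 6.63 to 13.25 times at 5000 to under 10000 UMIs, 2.7 to 13.7 times at 10000 to under 20000 UMIs and 2.9 to 3.78 times at 20000 UMIs or more. The fall from the first of these bins to the last was 4.3 to 11.31 times in S-high, 3.97 to 9.97 times in G2/M-high and 1.35 to 4.97 times in low-cycling cells. In the deepest S-high cells Fpr2f/f replicate 2 was highest at 378 CPM. The smallest of these bins held 26 cells of a library. The S-high class differed in depth between libraries, with a median of 8133 UMIs per cell in Fpr2f/f replicate 2 and 26200 in Fpr2f/f replicate 1.

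**Figure D5:**
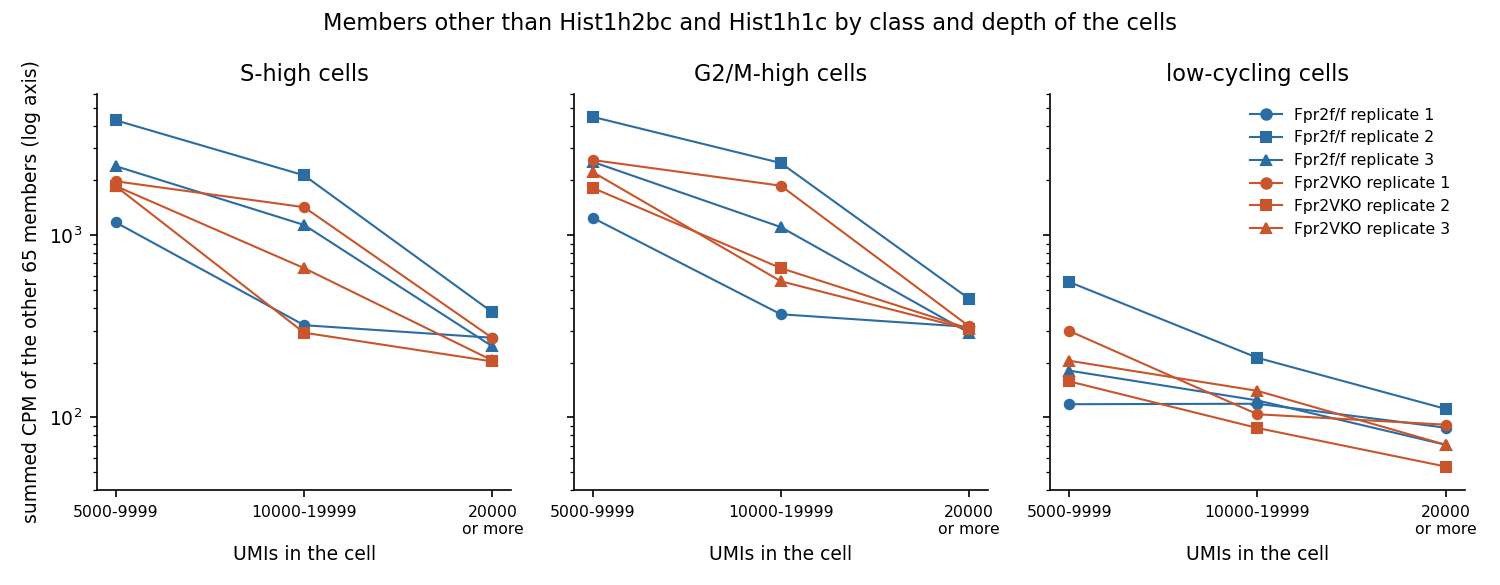
Summed CPM (log axis) of the 65 members other than Hist1h2bc and Hist1h1c in S-high, G2/M-high and low-cycling cells, by UMI total. From the first bin to the last the level falls in every class, and S-high cells exceed low-cycling cells at each depth.

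Histone UMIs were concentrated in a minority of cells. After each cell was thinned to 1000 UMIs, 48.5 to 65.4% of the cells of a library held at least 1 histone UMI and 6.10 to 16.4% held 5 or more, the highest share again in Fpr2f/f replicate 2. The 5% of cells with most histone UMIs carried 28.8 to 36.5% of the total. The cells with 5 or more numbered 1665 and held UMIs assigned to 5 to 6 different members in the median. That number rests on the uncertain split among close copies, and doublets were not removed. Hist1h1e was at 1116 to 1477 CPM in them and 81.0 to 144.2 CPM in the rest. Cells with 5 or more made up 8.41 to 16.9% of shallow and 0.245 to 3.31% of deep cells. Since histone UMIs defined these cells, their histone levels are a description.

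What the definition did not use also differed between them. The G2/M genes summed to 2159 to 2759 CPM in the histone-rich cells and 935.3 to 1413 CPM in the rest, higher in 6 of 6 libraries by 1.81 to 2.33 times. Top2a, the DNA topoisomerase of dividing cells, was at 412.3 to 608.0 CPM against 146.9 to 203.0 CPM. The S-phase genes were higher by only 1.08 to 1.76 times, and Pcna, the replication clamp, was at 196.0 to 292.4 CPM against 192.3 to 270.0 CPM and overlapped. Paneth, goblet, enterocyte and enteroendocrine markers were lower in 6 of 6 libraries, Paneth markers at 0.0781 to 0.149 times the level in the other cells. Immune markers were also lower in 6 of 6 libraries, at 0.0973 to 0.463 times, as were stem markers, at 0.447 to 0.983 times. Tuft markers were higher in 3 of 6 libraries, at 0.434 to 2.51 times.

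Hist1h2bc and the other members also differed across cells rich in markers of epithelial types. Among cells of at least 5000 UMIs, the top 5% of each library for a marker list was taken as marker-high, which is a range and not a cell type. Enterocyte-marker-high cells (408) had Hist1h2bc at 382.9 to 595.1 CPM but only 38.7 to 102.2 CPM of the other 49 members without a signal. Paneth-marker-high cells (418) had the lowest levels of all, 55.8 to 101.6 CPM for all 67 members and 15.7 to 31.0 CPM for Hist1h2bc. Other genes were low in them too. Malat1 was at 420.3 to 1465 CPM against 3026 to 5342 CPM in all cells. Variant histone genes outside the clusters were at 627.1 to 1199 CPM against 3156 to 4507 CPM. These are plain CPM, and the part of abundant Paneth transcripts in the low levels was not tested. Goblet-marker-high cells (385) held 258.5 to 444 CPM and stem-marker-high cells (409) 257.5 to 614.9 CPM in all. Enteroendocrine-marker-high cells (370) reached 579.4 to 848.8 CPM. Tuft-marker-high cells (345) ranged most widely, from 500.5 to 2357 CPM. The G2/M genes were at 1246 to 2121 CPM in tuft-marker-high and 1349 to 2980 CPM in stem-marker-high cells, against 966.7 to 1464 CPM in all cells. In low-cycling cells Hist1h2bc made up 177.2 to 252 CPM of a total of 280.1 to 402.4 CPM. Barcodes under 100 UMIs, which hold free RNA, gave 479.8 to 909.4 CPM in all, of which Hist1h2bc was 112 to 173.4 CPM. The sums of Paneth-marker-high, goblet-marker-high and low-cycling cells all lay below those of these barcodes, and for Hist1h2bc alone Paneth-marker-high cells did so as well.

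The study compared Fpr2VKO with Fpr2f/f. In all cells the 67 members summed to 707.3, 1313 and 816 CPM in Fpr2f/f and 726.4, 578.7 and 652.9 CPM in Fpr2VKO. Replicate 2 of Fpr2f/f was high and the other 5 libraries overlapped; the means were 945.4 ± 322.9 and 652.7 ± 73.8 CPM (SD, n = 3 each), and 761.6 CPM for Fpr2f/f without that library. Of the sums by type, H4 did not overlap between groups, at 120.3, 330.5 and 163 CPM in Fpr2f/f and 119.6, 94.7 and 98.0 CPM in Fpr2VKO, whereas those of H1, H2A, H2B and H3 overlapped. The nearest H4 values, 120.3 and 119.6 CPM, were almost equal, and H2A overlapped only at 93.48 CPM in Fpr2f/f and 93.77 CPM in Fpr2VKO. These sums were given no test. The mean H4 sum of Fpr2f/f was 204.6 CPM, or 141.6 CPM without replicate 2, and that of Fpr2VKO 104.1 CPM. Of the 65 members with a UMI, 21 were lower in Fpr2VKO with no overlap between groups and 1 was higher, where 8.29% of the 28702 genes with a UMI were lower in this way and 2.75% higher. Among genes with a mean of 1 CPM or more these were 18 members lower and 1 higher, against 9.15% and 3.6% of 13311 genes. With Fpr2f/f replicate 2 left out, 21 members with a UMI were lower without overlap (14.9% of genes) and 2 higher (4.68%). With edgeR, 58 members were tested and 0 were called in either direction, where 0.0177% of 16917 genes were called higher and 0% lower. Unadjusted p-values under 0.05 were found for 22 members lower and 1 higher in Fpr2VKO, against 4.84% and 3.61% of all genes tested. These became 4 members lower and 1 higher without Fpr2f/f replicate 2, against 2.48% and 2.86% of genes. DESeq2 called 3 members lower (Hist1h2bj, Hist1h4a and Hist1h4m) and 0 higher, against 0.301% and 0.349% of the 14617 genes to which it gave an adjusted p. Log2 differences were negative for 56 of the 58, but their median of -0.81 (all genes 0.00) became -0.31 without Fpr2f/f replicate 2.

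No member met the naming rule here, so those given were chosen after their values were seen. Hist1h2bj was at 8.37, 18.2 and 9.47 CPM in Fpr2f/f and 6.66, 4.72 and 5.07 CPM in Fpr2VKO, without overlap with or without Fpr2f/f replicate 2, for a log2 difference of -1.12 (edgeR, adjusted p = 0.522). Hist1h4b was at 4.15, 15.6 and 6.44 CPM and at 3.88, 3.53 and 3.91 CPM (-1.22, adjusted p = 0.633). Hist2h2be went the other way, at 5.43, 4.93 and 3.80 CPM and 7.61, 5.46 and 6.81 CPM (0.53, adjusted p = 0.503). Hist1h2bc differed by -0.01 (adjusted p = 0.987). Sums over all cells cannot tell a smaller share of shallow or cycling cells from less histone RNA per cell; shallow cells made up 62.9, 55.2 and 54.1% of the cells of Fpr2f/f and 39.0, 43.8 and 42.0% of those of Fpr2VKO. The median UMIs per cell were 3033, 4602 and 4612 in Fpr2f/f and 6358, 6728 and 6686 in Fpr2VKO, so depth separated the groups without overlap, and its part in the difference over all cells was not tested beyond the comparisons within classes of cells. Those classes do not hold depth equal. S-high cells had medians of 26200, 8133 and 13705 UMIs in Fpr2f/f and 16504, 23662 and 24354 in Fpr2VKO. The part of depth in the S-high sums of the groups was not tested.

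Within classes of cells the summed levels of the groups overlapped. In shallow cells the summed level was 2092 ± 519 CPM in Fpr2f/f and 1928 ± 217 CPM in Fpr2VKO, and without Fpr2f/f replicate 2 Fpr2VKO was higher by 130.9 CPM. edgeR tested 56 members and called 0, with 0.0167% of 12009 genes called higher and 0.00833% lower. The unadjusted p was under 0.05 for 2 members, both lower, where 4.44% of genes were lower at that limit, and 0 were called by DESeq2. It was under 0.05 for 0 members lower and 3 higher without Fpr2f/f replicate 2 (2.24% and 2.14% of genes). In S-high cells the sums were 1097 ± 689 and 601.9 ± 117.4 CPM, or 712.6 CPM for Fpr2f/f without replicate 2. There 52 members were tested and 0 called (0.00839% and 0.0168% of 11912 genes), with 9 lower at an unadjusted p under 0.05 (2.51% of genes) and 0 called by DESeq2. Without a filter on low counts edgeR called 8 members lower in S-high cells, against 0.189% of 24300 genes. Without Fpr2f/f replicate 1 it called 3 lower, against 0.128% of 12494 genes. Without Fpr2f/f replicate 2 it called 0, and 3 members were lower at that unadjusted limit (1.81% of genes). In low-cycling cells the sums were 382.8 ± 10.3 and 350.4 ± 63.2 CPM, and 0 of 34 members were called (0.00726% and 0% of 13783 genes), with 1 lower at an unadjusted p under 0.05 (2.02% of genes) and 0 by DESeq2. The difference between S-high and low-cycling cells did not pass a test of change between groups for any of 56 members (0% and 0.00754% of 13266 genes), with 11 negative at an unadjusted p under 0.05 (1.96% of genes) and 0 called by DESeq2. The median over these members was -0.69, and without Fpr2f/f replicate 2 it was -0.32, with 6 negative at that limit (1.6% of genes).

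Genes that make and handle histone RNA were followed in the same comparisons. Of 16 genes of histone transcription and end processing, 14 were tested between S-high and low-cycling cells and 12 were higher (36.9% of all genes), 0 lower, with a median log2 difference of 0.94 against 0.00 over all genes. They included Slbp, the stem-loop binding protein (1.72 ± 0.05, mean 197.7 against 44.7 CPM), Eri1, an exonuclease that trims histone RNA ends (2.00 ± 0.07), Casp8ap2, a protein of the histone locus body (1.98 ± 0.08), and Lsm11, a subunit of the U7 particle that guides cleavage (1.78 ± 0.13). Between shallow and deep cells this list was mixed, with 4 higher and 8 lower of 15, where 35.3% of all genes were higher and 34.5% lower. Slbp was at 86.2 and 87.7 CPM there (-0.19 ± 0.08, adjusted p = 0.0328, a size under the 0.22 by which the scalings differ). Sympk, the scaffold of the cleavage complex, was higher in shallow cells (1.41 ± 0.08), as was Zfp473, which binds the U7 particle (1.28 ± 0.27). Cpsf3, the nuclease that cuts histone RNA, and Lsm10 were lower (-0.90 ± 0.10 and -0.90 ± 0.15).

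Histone chaperones, which carry new histones to DNA, were higher in S-high cells for 9 of 10 genes (36.9% of all genes; median 2.29). The largest differences were those of Asf1b (4.60 ± 0.13), Chaf1b (3.63 ± 0.14), Chaf1a (3.39 ± 0.12), both subunits of chromatin assembly factor 1, and Hat1, which acetylates new H4 (3.22 ± 0.07), against a median of 0.00 over all genes. In shallow cells 3 of the 10 were higher and 3 lower, close to the shares of all genes (35.3% and 34.5%), with Chaf1a at 0.72 ± 0.11, Hat1 at -0.95 ± 0.10, Asf1a at -0.81 ± 0.08 and Hira at -0.56 ± 0.09.

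Most variant histone genes outside the clusters have polyadenylated transcripts, and H2afx is known to have both forms. Of 11, 10 were tested between S-high and low-cycling cells and 7 were higher (36.9% of all genes), among them Cenpa, the centromeric H3 (2.73 ± 0.15), H2afx (1.98 ± 0.07), H2afz (1.61 ± 0.04) and H2afy (0.88 ± 0.04). In shallow cells 7 of the 11 were lower and 2 higher (34.5% and 35.3% of all genes; median -0.54, all genes 0.03). H2afz was at a mean of 554.5 CPM in shallow and 1131 CPM in deep cells (-1.21 ± 0.07), H3f3a at 449.3 and 913.4 CPM (-1.21 ± 0.06) and Cenpa at 51.0 and 81.7 CPM (-0.86 ± 0.07). H2afj, at 528.7 and 159.9 CPM, was higher (1.54 ± 0.07). Between the mouse groups, edgeR called 0 genes of these 3 lists in all, shallow, S-high or low-cycling cells.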

How the data were processed

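The deposited files hold counts: raw UMI counts per gene and barcode, which the authors made from droplet libraries with MobiVision on the mouse build mm10; the annotation version is not given in the sources used here. The study gives 3 mice per group for these cells, as many as there are libraries, but the labels do not tie each library to 1 mouse; p-values measure the spread between libraries. Barcodes with at least 1000 UMIs, at least 500 genes and at most 20% mitochondrial UMIs were kept as cells, 17104 in all; doublets were not removed here. Library totals were 90142126 to 189516114 UMIs, and 0 columns of other samples were present.

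UMIs were summed per library and class of cells and tested over all genes with the quasi-likelihood test of edgeR 4.0.16 (R 4.3.3; TMM scaling, filterByExpr, Benjamini-Hochberg adjustment, threshold 0.05), with the library as a block between classes of cells. Log2 differences are given ± SE, and levels as CPM with no pseudocount. The steps were run on simulated counts of a fixed dispersion without an outlying library, so that check does not measure power or error in the comparison of the mouse groups. Alternatives were DESeq2 1.42.0, other scaling, filters and cell limits, thinning, the phases of cyclone (scran 1.30.0), leaving out each library and the replicate block. Stem-loops and poly(A) signals were read from GENCODE M21 transcripts and promoters from RefSeq. Correlations of deviations between libraries of the same number were -0.097, -0.049 and 0.201, so the numbers were not taken to pair them.

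Named members were the 10 with the highest mean CPM, the highest of each type and, per comparison, up to 10 called members of at least 5 CPM with the largest difference and 1 direction in all libraries; lists gave up to 4 genes each. Members and lists were chosen with earlier results of these data known. The authors' own comparisons were not used.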

Additional observations from a re-analysis of the deposited data

How the results depend on the processing

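Of the counts of called members under alternatives, 120 stayed within 1.5 times the main count and 13 did not. Most of these alternatives belong to comparisons of the mouse groups with a main count of 0, where a count that stayed at 0 was taken as unmoved. Between Fpr2VKO and Fpr2f/f, where the main count was 0 in each class, DESeq2 called 3 members in all cells, and without a filter on low counts edgeR called 1 in shallow cells, 8 in S-high cells and 1 for the change between classes, all lower, against 0.365%, 0.189% and 0.0984% of all genes. Leaving out 1 library gave 0 to 3 in S-high cells, the 3 without Fpr2f/f replicate 1. A replicate block was fitted in these 4 comparisons of the mouse groups only, and the numbers were not taken to pair the libraries. With it 0 members were called in all, shallow, S-high and low-cycling cells. Over all genes it called 20 higher and 2 lower in low-cycling cells (1 and 0 without it) and 4 and 7 in shallow cells (2 and 1). Some limits that kept fewer cells or UMIs left fewer members to test and gave lower counts. For S-high against low-cycling cells (38 called) they were 11 of 15 tested at a mitochondrial limit of 10%, 23 of 25 without immune-marker cells (those of 2 or more such UMIs) and 25 of 26 with cells thinned to 5000 UMIs. In the same order 31.8%, 21.8% and 33.5% of all genes tested were called higher and 30.4%, 19.6% and 32.1% lower. For G2/M-high cells (46) they were 20 of 22, 30 of 30 and 28 of 29, where 32.6%, 21.4% and 31.9% of all genes were higher and 32%, 21.3% and 31.9% lower. For shallow against deep cells (57) they were 27 of 27 with cells thinned to 1000 UMIs (all higher; 27.1% of genes higher) and 35 of 37 in cells with no cell cycle UMI (34 higher; 27.5%). Mean log2 ratios of the summed members moved as well. From 1.05 for S-high cells they went to 2.20 (limit of 10%) and 3.31 (no immune-marker cells). From 1.26 for G2/M-high cells they went to 1.78 (thinned), 2.31 and 3.49. From 2.03 for shallow cells they went to 1.53 (no cell cycle UMI), 1.67 (thinned), 2.52 (limit of 10%), 1.29 (limit of 40%) and 2.80 (no immune-marker cells). The summed CPM of Fpr2VKO minus Fpr2f/f was -292.7 in all cells and -556.4 without immune-marker cells. It was -164 in shallow cells, -610.7 at the limit of 10% and -356.1 to 130.9 with 1 library left out (130.9 without Fpr2f/f replicate 2), -494.8 in S-high cells and -1186 without immune-marker cells. In low-cycling cells it was -32.41, against -138.8 (cyclone phases), -89.2 (limit of 10%) and -79.24 (no immune-marker cells), and -58.4 to 2.76 with 1 library left out (2.76 without Fpr2VKO replicate 2). Directions reversed for Hist1h2bc without immune-marker cells (0.18 for S-high, 0.60 for G2/M-high), for Hist1h1c there (0.82 for G2/M-high; 0.52, not called, for S-high), for Hist2h3c1 in G2/M cells with cyclone phases (0.77) and for Hist1h2bc between shallow and deep cells without a filter (-0.25). The cause was not tested, and the cut on immune-marker UMIs also removed a larger share of deep than of shallow cells. Of the 11 members under 1 CPM, Hist1h2br (0.86 CPM) and Hist3h2ba (0.698 CPM) were well above the 0.0573 to 0.113 CPM that 3 UMIs make, Hist1h2ap (0.196 CPM) was closer to it, and the other 8 were at 0 to 0.0591 CPM.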

Other observations

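Barcodes outside the limits used for cells also held histone UMIs. In barcodes of at least 1000 UMIs and 500 genes, grouped by their share of mitochondrial UMIs, the 67 members summed to 990.8 to 1420 CPM at 20 to 30% and 588.5 to 802.1 CPM at 40 to 60%. Inside the limit, in the cells, they summed to 74.1 to 332.5 CPM at 0 to 5%, 547.3 to 1565 CPM at 5 to 10% and 856.1 to 1664 CPM at 15 to 20%. The limit on mitochondrial UMIs removed 65.7 to 90.1% of the barcodes that passed the other limits. Among barcodes of 1000 to under 5000 UMIs with 20 to 40% mitochondrial UMIs (29769 barcodes), Hist1h2bc was at 211.1 to 251.6 CPM and the members without a poly(A) signal, Hist1h2bc left out, were at 480.3 to 846 CPM. In cells of the same UMI range with 10 to 20%, these were at 228 to 304.2 and 1222 to 1729 CPM.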
